A study of Mus musculus with 8 samples.

Results

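Liver RNA levels of 49 genes of the urea cycle and of amino acid breakdown were followed across Xbp1 genotype and diet. The genes were chosen by name, as enzymes of the urea cycle and of histidine, serine, tyrosine, tryptophan, glutamate, proline, lysine, glycine, branched-chain, cysteine and methionine metabolism. All 49 were found among the 22923 symbols measured, each in 1 row per file, and were grouped into 13 pathways. The 4 groups were knockout mice (genotype label Xbp1-/-, deficient in hepatic Xbp1) on a diet high in fat with an equivalent to high-fructose corn syrup (called high fat here), flox controls (label Xbp1flox) on that diet, knockout mice on regular chow, and flox controls on chow. Feeding lasted 4 weeks, all mice were of the C57BL/6 strain, and each group held 4 mice whose livers were pooled into 2 libraries. The files hold 1 value per gene and group, so nothing below could be checked against replicates, and no p-value or standard deviation is given. The sources used here do not give the Cre driver or the sex and age of the mice.

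The urea cycle turns ammonia, released when amino acids are broken down, into urea in hepatocytes. Carbamoyl phosphate synthetase and ornithine transcarbamylase work in mitochondria, and the later steps in the cytosol. Most enzymes of this group are known from hepatocytes near the portal vein, whereas glutamine synthetase, which captures the ammonia that escapes the cycle, is known from the hepatocytes around the central vein. Breakdown enzymes of single amino acids are known to respond to glucagon, glucocorticoids and dietary protein. Xbp1 is best known as a factor that switches on genes when unfolded proteins build up in the endoplasmic reticulum.

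Levels are given as RPKM, by name reads scaled to transcript length and to mapped reads, which allows levels of different genes to be set side by side. How the libraries of a group were scaled was not given. Changes are log2((a + 1)/(b + 1)) of 2 RPKM values, and a gene is said to have risen or fallen, or to have been called, where this reached 1 in size, a change of about 2-fold. Xbp1 stood at 34.1 RPKM in knockout high-fat livers and 90.7 RPKM in flox high-fat livers, and at 44.2 RPKM in knockout chow livers and 112 RPKM in flox chow livers. The deposited values summed to 367414 RPKM in knockout high-fat livers, against 461725 RPKM in flox high-fat livers, 461392 RPKM in knockout chow livers and 513694 RPKM in flox chow livers. Since this sum differs, changes were also computed after rescaling the groups to a common median ratio (median rescaling) and to a common sum without the 50 most abundant genes (rescaling without the top genes). Relative to the deposited values, these add 0.17 and 0.31 to the log2 ratios of knockout to flox livers on the high-fat diet, and 0.03 and 0.15 on chow. For the high-fat diet over chow they add 0.15 and 0.29 in knockout livers, and 0.01 and 0.13 in flox livers. Beside some changes the percentile of the gene among all genes compared is given. Of 8 hepatocyte markers, 7 were detected in all groups, while Alb was listed at 0 in all of them, so a value of 0 in these files can be a failed estimate. None of the 49 genes was listed at 0.

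Knockout livers on the high-fat diet had the lowest RNA level of the 4 groups for 42 of the 49 genes. The same group was lowest for 52.0% of the 10351 genes kept (at least 1 RPKM in at least 1 group) and for 73.2% of the 3252 genes with at least 10 RPKM in every group, to which 48 of the 49 belong. After median rescaling it was lowest for 41 of the 49, against 29.9% of genes kept and 47.7% of the abundant ones. After rescaling without the top genes it was lowest for 36 of the 49, against 13.7% and 24.9%. The exceptions as deposited were Tat, Got1, Glul, Oat, Csad and Cth, which were lowest in flox high-fat livers, and Glud1, which was lowest in flox chow livers. Together the 49 genes made up 2.53% of the summed RPKM in knockout high-fat livers, 2.92% in flox high-fat livers, 3.44% in knockout chow livers and 3.16% in flox chow livers. In bulk liver, fewer hepatocytes and less of these RNAs per hepatocyte cannot be told apart.

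**Figure D1:**
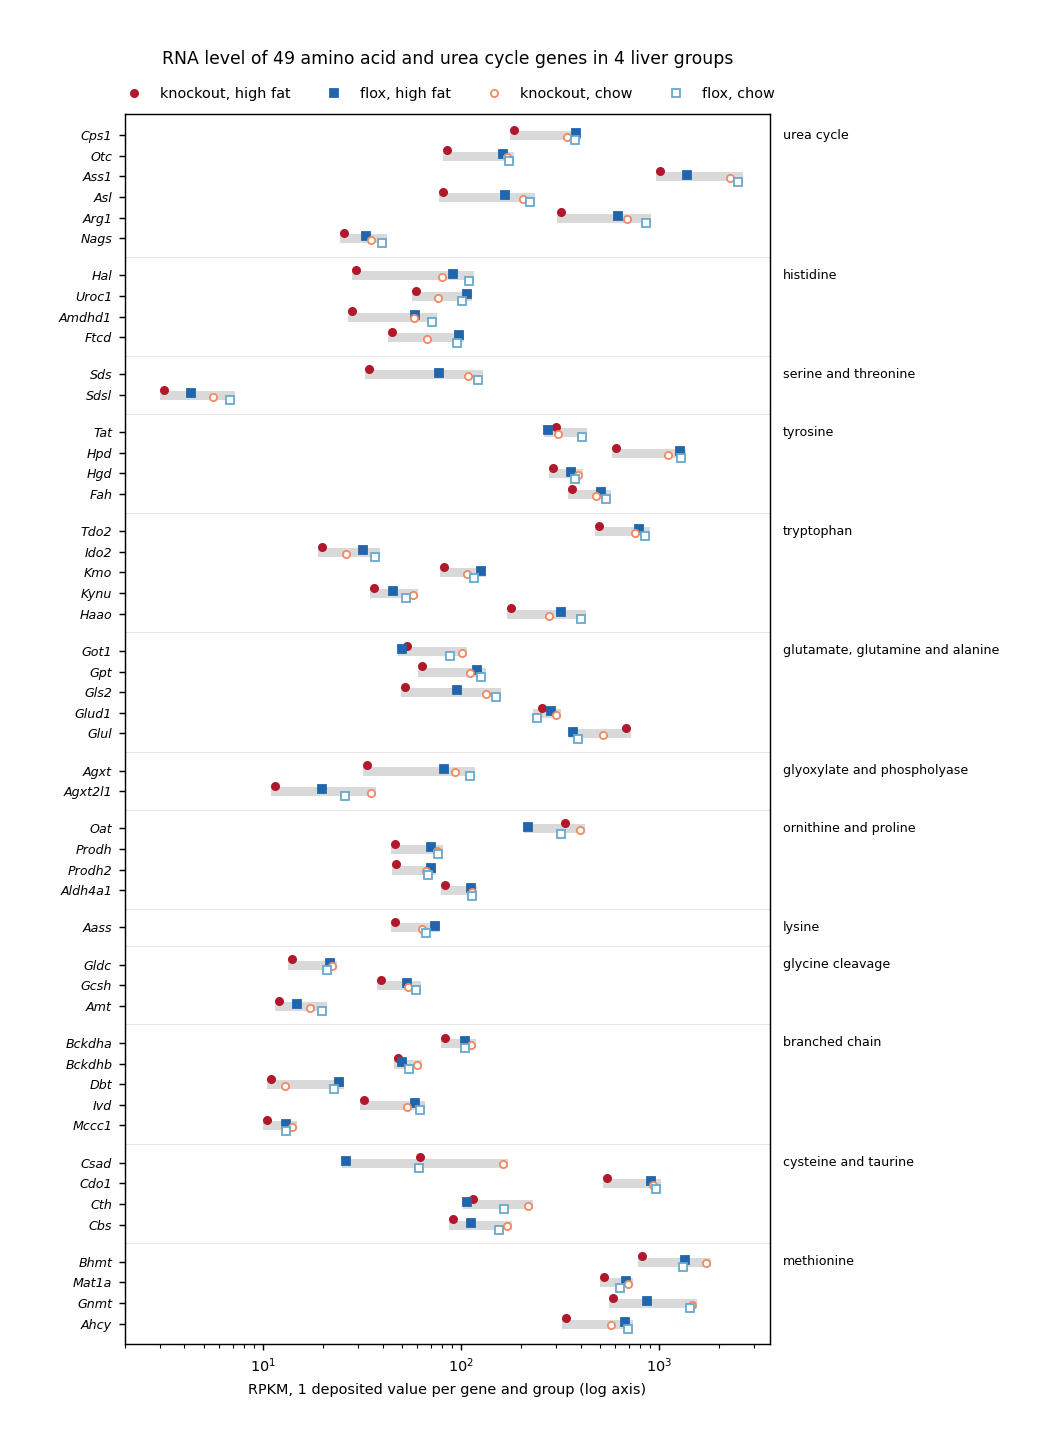
RNA level of each of the 49 genes in RPKM on a log axis, by pathway, with 1 marker per group (filled circle, knockout high fat; filled square, flox high fat; open circle, knockout chow; open square, flox chow) and a grey bar over the range of the 4 values. The filled circle lies leftmost for 42 genes, and Glul is the gene in which it lies rightmost.

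On the high-fat diet, 9 of the 49 genes fell in knockout against flox livers (18.4%) and 1 rose. Among all 10327 genes compared, 1.86% fell and 1.07% rose, and among genes with at least 10 RPKM in every group 3.69% fell. With the lower bar of 1.5-fold, 26 of the 49 (53.1%) were lower, against 8.33% of all genes and 17.3% of the abundant ones, and 3 (Csad, Glul and Oat) were higher, against 3.20% of all genes. The median log2 change was -0.59 for the 49 genes, -0.13 for all genes and -0.27 for the abundant ones. The median rank of the 49 was the 8.05 percentile, and 28 of them lay in the lowest 10% of all genes. After median rescaling 2 of the 49 fell (Hal and Agxt) and 2 rose (Csad and Glul). Of 10413 genes 120 fell (1.15%) and 142 rose (1.36%), against 192 and 111 as deposited. After rescaling without the top genes 1 of the 49 fell (Hal) and 2 rose (Csad and Glul). Of 10516 genes 90 fell (0.856%) and 192 rose (1.83%). The medians of the 49 were then -0.43 and -0.30, against 0.01 and 0.12 for all genes under the same 2 rescalings. As deposited 43 of the 49 changes (87.8%) were below 0, near the 84.3% of abundant genes and above the 70.1% of all genes. Under each of the 2 rescalings 41 were (83.7%), Glud1 and Bckdhb having turned, against 65.5% of abundant genes after median rescaling and 47.3% after rescaling without the top genes.

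**Figure D2:**
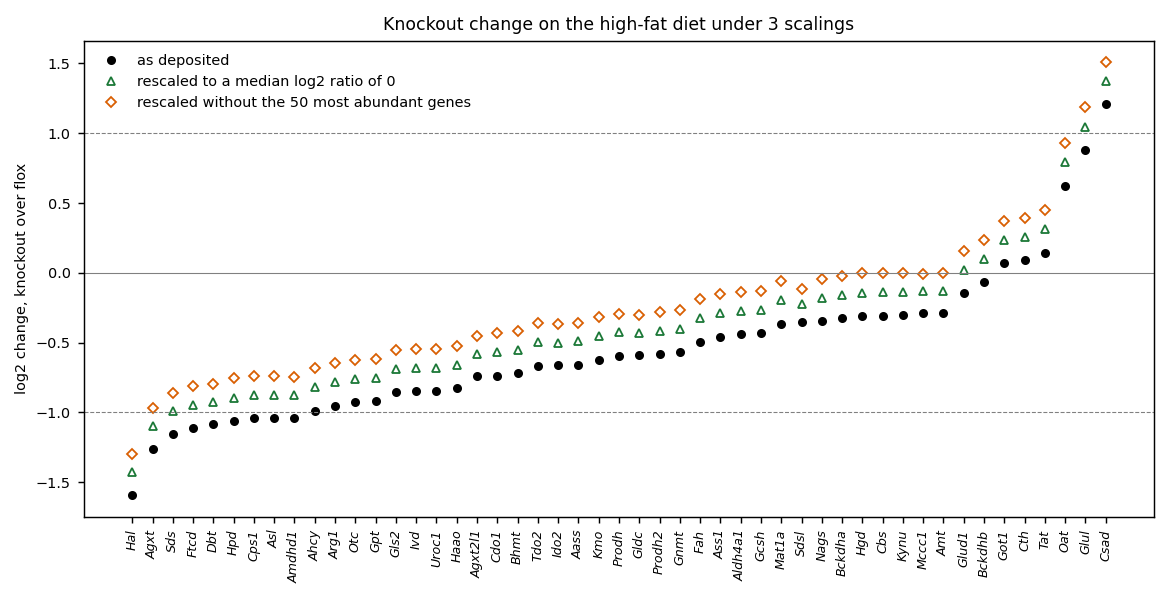
log2 change in knockout over flox livers on the high-fat diet for each of the 49 genes, ordered by the change as deposited (black), with the values after median rescaling (green triangles) and to a common sum without the 50 most abundant genes (orange diamonds). At or below the dashed line at -1 lie 9 genes as deposited, 2 after median rescaling and 1 without the top genes.

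Markers of bile duct cells (cholangiocytes) were higher in knockout high-fat livers, under both rescalings too. Of 7 cholangiocyte markers 6 were kept and 4 rose against flox high-fat livers (Spp1, Tspan8, Cd24a and Epcam). The summed level of the 7 was 118 RPKM in knockout high-fat livers, 24.99 RPKM in flox high-fat livers, 46.3 RPKM in knockout chow livers and 23.6 RPKM in flox chow livers. Most of this sum was Spp1, at 103 and 20.6 RPKM in knockout and flox livers on the high-fat diet. Tspan8, Cd24a and Epcam were low, at 2.82, 6.00 and 2.01 RPKM in knockout and 0.325, 1.58 and 0.302 RPKM in flox livers on that diet. Krt7, Krt19 and Sox9, at 0.784, 1.61 and 1.67 RPKM in knockout high-fat livers, were not called. Of 6 macrophage markers in the files 0 rose in knockout high-fat against flox high-fat livers, but all 6 were above 0 (median 0.36). Their sums were 166 RPKM in knockout high-fat, 128 RPKM in flox high-fat, 90.7 RPKM in knockout chow and 98.1 RPKM in flox chow livers. Of 6 stellate and fibroblast markers 1, Col1a1, rose in that comparison, and all 6 were above 0 (median 0.41). Their sums were 149 RPKM in knockout high-fat, 91.8 RPKM in flox high-fat, 119 RPKM in knockout chow and 96.6 RPKM in flox chow livers. Of 5 endothelial markers 0 rose in that comparison, and 3 were above 0 (median 0.02). Their sums were 26.7 RPKM in knockout high-fat, 29.0 RPKM in flox high-fat, 20.8 RPKM in knockout chow and 21.7 RPKM in flox chow livers. Among all genes 70.1% were below 0 in that comparison. None of the markers of these 4 cell types was listed at 0. Of 7 hepatocyte markers above 0 RPKM, 1, Apoa1, fell (-1.23), but not after rescaling without the top genes, and the 7 had a median of -0.57 on the high-fat diet and of -0.31 on chow. The hepatocyte median on the high-fat diet lay close to that of the 49 genes, -0.59, while on chow it lay below theirs, -0.12. The part of these cell types in the lower levels of the 49 genes was not tested.

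The urea cycle enzymes were lower together in knockout high-fat livers. Cps1 (mm10 chromosome 1, 67123026 to 67231259), carbamoyl phosphate synthetase and the entry step of the cycle, had 184 RPKM in knockout high-fat and 380 RPKM in flox high-fat livers, and 343 RPKM in knockout chow and 377 RPKM in flox chow livers. Asl, argininosuccinate lyase, had 80.6 and 167 RPKM in knockout and flox livers on the high-fat diet, and 206 and 223 RPKM in knockout and flox livers on chow. As deposited both fell on the high-fat diet, with a log2 change of -1.04 each. Neither did under the rescalings (-0.87 and -0.74 each). The other 3 groups lay close together for Cps1. Arg1, arginase, had 318 RPKM in knockout high-fat and 617 RPKM in flox high-fat livers (-0.95), and 683 RPKM in knockout chow and 852 RPKM in flox chow livers. Otc, ornithine transcarbamylase, had 84.5 and 162 RPKM in knockout and flox livers on the high-fat diet (-0.93), and 170 and 174 RPKM on chow. These 4 genes ranked between the 1.68 and 2.35 percentiles of all genes in this comparison. Ass1, argininosuccinate synthase and the most abundant of the 49 in every group, followed diet more than genotype, with 1002 RPKM in knockout high-fat and 1376 RPKM in flox high-fat livers (-0.46), against 2275 RPKM in knockout chow and 2490 RPKM in flox chow livers. Nags, which makes the allosteric activator of Cps1, differed least, with 25.7 and 32.8 RPKM in knockout and flox livers on the high-fat diet (-0.34).

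All 4 histidine enzymes were lower in knockout high-fat livers, and 3 of them fell as deposited. Under both rescalings Hal alone of the 4 fell. Hal (mm10 chromosome 10, 93488768 to 93519304), histidine ammonia-lyase and the first step of histidine breakdown, had 29.3 RPKM in knockout high-fat and 90.4 RPKM in flox high-fat livers, and 79.7 RPKM in knockout chow and 109 RPKM in flox chow livers. Its log2 change of -1.59 on the high-fat diet was the largest fall among the 49, at the 0.378 percentile of all genes. Ftcd, formiminotransferase cyclodeaminase and the last step, had 44.4 and 97.1 RPKM in knockout and flox livers on the high-fat diet (-1.11), and 66.8 and 95.6 RPKM on chow (-0.51). Amdhd1, the imidazolonepropionase, had 27.9 and 58.5 RPKM on the high-fat diet (-1.04) in knockout and flox livers, and 57.8 and 71.5 RPKM on chow (-0.30). These 2 genes were lowest in knockout high-fat livers as Hal was. Uroc1, urocanase, had 58.7 RPKM in knockout high-fat and 106 RPKM in flox high-fat livers (-0.85), and 75.9 RPKM in knockout chow and 101 RPKM in flox chow livers (-0.41). Hal and Amdhd1 are neighbours on chromosome 10.

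Serine dehydratase and alanine-glyoxylate aminotransferase fell alongside as deposited, Agxt after median rescaling too and Sds under neither rescaling. Sds, which deaminates serine and threonine, had 34.2 RPKM in knockout high-fat and 77.6 RPKM in flox high-fat livers (-1.16), and 108 RPKM in knockout chow and 121 RPKM in flox chow livers. Its exons overlap those of Plbd2 on the other strand, and such an overlap with another gene, on either strand, holds for 9 of the 49. Whether the counting used strand was not given in the sources used here, so reads of such pairs cannot be told apart. The related Sdsl was the least abundant of the 49 in every group, between 3.16 and 6.80 RPKM. Agxt (mm10 chromosome 1, 93135240 to 93145421), the aminotransferase that clears glyoxylate, had 33.5 RPKM in knockout high-fat and 81.9 RPKM in flox high-fat livers (-1.27), and 92.4 RPKM in knockout chow and 111 RPKM in flox chow livers. Agxt2l1, whose current RefSeq symbol is Etnppl, is named after Agxt by sequence but encodes an ethanolamine-phosphate lyase. It had 11.5 RPKM in knockout high-fat and 19.8 RPKM in flox high-fat livers (-0.74), and 35.1 RPKM in knockout chow and 25.8 RPKM in flox chow livers (0.43).

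The promoter windows of Hal and Agxt are shown here because these 2 had the largest falls of the 49 in knockout high-fat livers as deposited, and that of Csad because it rose. Each runs from 250 bases before to 50 bases after a RefSeq transcription start (build GRCm38.p6), 5′ to 3′ on the strand of the gene. Capitals mark TTGCNNAA, a C/EBP motif, in Hal, TGTTCT, the core of a glucocorticoid receptor element, in Agxt, and TGACG, the core shared by cyclic AMP and unfolded protein response elements, in Csad.
Hal, chr10:93488518-93488817, plus strand: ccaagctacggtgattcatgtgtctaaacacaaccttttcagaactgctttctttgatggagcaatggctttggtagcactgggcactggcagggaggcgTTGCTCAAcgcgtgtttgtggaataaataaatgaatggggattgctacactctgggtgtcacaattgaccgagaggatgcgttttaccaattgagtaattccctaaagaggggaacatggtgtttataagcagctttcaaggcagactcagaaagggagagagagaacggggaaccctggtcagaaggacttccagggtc
Agxt, chr1:93134990-93135289, plus strand: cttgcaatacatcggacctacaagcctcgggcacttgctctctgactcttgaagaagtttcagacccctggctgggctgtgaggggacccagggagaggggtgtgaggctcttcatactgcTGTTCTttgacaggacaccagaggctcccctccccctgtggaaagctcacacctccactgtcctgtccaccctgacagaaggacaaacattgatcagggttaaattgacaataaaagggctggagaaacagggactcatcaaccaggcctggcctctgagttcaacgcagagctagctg
Csad, chr15:102205003-102205302, minus strand, the upstream of its 2 RefSeq starts: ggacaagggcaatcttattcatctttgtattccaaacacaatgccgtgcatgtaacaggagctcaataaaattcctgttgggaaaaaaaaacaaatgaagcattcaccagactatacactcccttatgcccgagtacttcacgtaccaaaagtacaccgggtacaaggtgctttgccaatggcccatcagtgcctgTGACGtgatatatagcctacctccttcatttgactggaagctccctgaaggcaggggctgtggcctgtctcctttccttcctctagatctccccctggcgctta
The marked letters start 150 bases before the start in Hal, 129 in Agxt and 54 in Csad, each on the strand shown. The window of the other Csad start held none of these motifs, and which start is used in these livers was not examined. These matches are a description of the windows and not of binding.

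RefSeq windows were matched for 36 of the 49 genes, and 6 motifs were searched on both strands. TGACG was in the windows of 5 of the 36 genes (13.9%, Aass, Csad, Ftcd, Nags and Oat), against 23.0% of 27025 genes with a window. TTGCNNAA was in those of 4 (11.1%, Aass, Hal, Hgd and Prodh2), against 12.2%, and TGTTCT in those of 4 (11.1%, Agxt, Bckdhb, Haao and Kmo), against 21.3%. TGACGTGG, an unfolded protein response element, TGACGTCA, the full cyclic AMP response element, and CAAAGTCCA, an HNF4 motif, were in 0 of the 36, against 0.714%, 2.03% and 0.555% of genes. TGACG lies within the first 2 of these 3 motifs. The shares for the 36 genes were thus near or below those of all genes for each of the 6 motifs, in these short windows.

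Among the aromatic amino acids, the tyrosine enzymes did not move alike. Hpd, hydroxyphenylpyruvate dioxygenase, had 605 RPKM in knockout high-fat and 1265 RPKM in flox high-fat livers (-1.06), and 1101 RPKM in knockout chow and 1283 RPKM in flox chow livers. Under the rescalings its change on the high-fat diet was -0.89 and -0.76, short of the threshold. Tat, tyrosine aminotransferase and the first step, had 302 and 273 RPKM in knockout and flox livers on the high-fat diet (0.14), and 308 and 407 RPKM on chow (-0.40). As deposited, Tat was thus among the 6 genes of the 49 with a change above 0 on the high-fat diet, while the next enzyme of the same pathway fell. Hgd and Fah, the later steps, had changes of -0.31 and -0.49. For tryptophan, 0 of 5 genes fell and all 5 had changes below 0, between -0.30 and -0.83. Tdo2, tryptophan dioxygenase, which opens the kynurenine pathway, had 495 RPKM in knockout high-fat and 786 RPKM in flox high-fat livers (-0.67), and 751 RPKM in knockout chow and 849 RPKM in flox chow livers. Haao, the dioxygenase on the way to quinolinate, had 178 and 317 RPKM in knockout and flox livers on the high-fat diet (-0.83), and 278 and 403 RPKM on chow (-0.53). Ido2, Kmo and Kynu, further enzymes of kynurenine formation and use, had changes of -0.66, -0.62 and -0.30.

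In ammonia handling, glutamine synthetase and glutaminase had changes of opposite sign. Glul (mm10 chromosome 1, 153899944 to 153909723), glutamine synthetase, was highest in knockout high-fat livers at 677 RPKM, against 368 RPKM in flox high-fat livers, and had 517 RPKM in knockout chow and 390 RPKM in flox chow livers. Its log2 change on the high-fat diet, 0.88, lay just under the threshold and at the 98.6 percentile of all genes, and it passed the threshold under both rescalings (1.05 and 1.18). Gls2, the liver glutaminase that frees ammonia from glutamine, had 52.0 RPKM in knockout high-fat and 94.7 RPKM in flox high-fat livers (-0.85), and 132 RPKM in knockout chow and 150 RPKM in flox chow livers. The ratio of Glul to Gls2, which no rescaling of a group can change, was 13.0 in knockout high-fat livers, 3.89 in flox high-fat livers, 3.90 in knockout chow livers and 2.60 in flox chow livers. The ratio of Glul to Cps1 was 3.68 in knockout high-fat livers, 0.969 in flox high-fat livers, 1.51 in knockout chow livers and 1.04 in flox chow livers. Both ratios were highest in knockout high-fat livers. Gpt, alanine aminotransferase, had 63.3 and 121 RPKM in knockout and flox livers on the high-fat diet (-0.92), and 110 and 126 RPKM on chow. Got1, the cytosolic aspartate aminotransferase, followed the diet, with 52.9 RPKM in knockout high-fat and 50.4 RPKM in flox high-fat livers, against 101 RPKM in knockout chow and 87.9 RPKM in flox chow livers. Glud1, glutamate dehydrogenase, stayed between 241 and 300.2 RPKM in all 4 groups. Exons of Glul and Gls2 overlap exons of Teddm2 and Spryd4 on the other strand.

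Ornithine aminotransferase stood apart from the proline enzymes. Oat, which in liver is known from the same cells around the central vein as Glul, had 334 RPKM in knockout high-fat and 217 RPKM in flox high-fat livers (0.62, 97.2 percentile), and 396 RPKM in knockout chow and 317 RPKM in flox chow livers (0.32). The ratio of Oat to Arg1 was 1.05 in knockout high-fat livers, 0.351 in flox high-fat livers, 0.580 in knockout chow livers and 0.373 in flox chow livers. This ratio too was highest in knockout high-fat livers. Prodh, proline dehydrogenase, had 46.1 and 70.0 RPKM in knockout and flox livers on the high-fat diet (-0.59), and 75.4 and 75.8 RPKM on chow. Prodh2 (-0.58) and Aldh4a1 (-0.44), a later step from proline to glutamate, were also lower in knockout high-fat livers than in flox high-fat livers. Aass, the bifunctional enzyme that opens lysine breakdown, had 46.1 RPKM in knockout high-fat and 73.2 RPKM in flox high-fat livers (-0.66), and 63.2 RPKM in knockout chow and 66.4 RPKM in flox chow livers. Of the glycine cleavage system, Gldc, its decarboxylase, had 14.0 and 21.6 RPKM in knockout and flox livers on the high-fat diet (-0.59), and 22.1 and 21.1 RPKM on chow. Gcsh (-0.43) and Amt (-0.29), the carrier and the aminomethyltransferase of that system, differed by less.

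Of the 5 branched-chain enzymes, 1, Dbt, fell in knockout high-fat livers as deposited but under neither rescaling, and the median of the 5 was -0.32. Dbt, the acyltransferase core of the branched-chain ketoacid dehydrogenase, had 10.9 RPKM in knockout high-fat and 24.2 RPKM in flox high-fat livers (-1.08), and 12.9 RPKM in knockout chow and 22.8 RPKM in flox chow livers (-0.77). It was low in both knockout groups, and its change on chow was the lowest among the 49. The subunits Bckdha and Bckdhb of the same complex had 82.8 and 104 RPKM (Bckdha) and 47.7 and 49.98 RPKM (Bckdhb) in knockout and flox livers on the high-fat diet, changes of -0.32 and -0.07, of which that of Bckdhb turned above 0 under both rescalings. On chow, Bckdha had 112 RPKM in knockout and 105 RPKM in flox livers. Ivd, isovaleryl-CoA dehydrogenase of leucine breakdown, had 32.2 and 58.7 RPKM in knockout and flox livers on the high-fat diet (-0.85), and Mccc1, the next carboxylase, 10.5 and 13.0 RPKM (-0.29).

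In sulfur amino acid metabolism, Csad was the gene that rose. Csad (mm10 chromosome 15, 102176999 to 102204724), cysteine sulfinate decarboxylase of taurine synthesis, had 61.7 RPKM in knockout high-fat and 26.2 RPKM in flox high-fat livers (1.21), and 162 RPKM in knockout chow and 61.2 RPKM in flox chow livers (1.39). It was higher in the knockout group on each diet and lower on the high-fat diet in each genotype, so that knockout high-fat and flox chow livers had nearly the same level. Its exons overlap those of Zfp740 on the other strand. Cdo1, cysteine dioxygenase and the step before Csad, had 544 RPKM in knockout high-fat and 908 RPKM in flox high-fat livers (-0.74), and 931 RPKM in knockout chow and 958 RPKM in flox chow livers. The ratio of Csad to Cdo1 was 0.113 in knockout high-fat livers, 0.0288 in flox high-fat livers, 0.174 in knockout chow livers and 0.0639 in flox chow livers. Cth and Cbs, which make cysteine by transsulfuration, were lower on the high-fat diet in both genotypes: Cth had 114 RPKM in knockout high-fat and 107 RPKM in flox high-fat livers, against 216 RPKM in knockout chow and 164 RPKM in flox chow livers. Cbs had 90.6 and 112 RPKM in knockout and flox livers on the high-fat diet, and 171 and 155 RPKM on chow.

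The 4 enzymes of the methionine cycle were all lowest in knockout high-fat livers, and 0 of them fell against flox high-fat livers. Mat1a, which makes S-adenosylmethionine in adult liver, had 528 RPKM in knockout high-fat and 681 RPKM in flox high-fat livers (-0.37), and 696 RPKM in knockout chow and 630 RPKM in flox chow livers. Gnmt, which uses up excess S-adenosylmethionine, had 586 and 871 RPKM in knockout and flox livers on the high-fat diet (-0.57), and 1464 and 1419 RPKM on chow. On chow the 2 genotypes were thus close for Gnmt, and the knockout value was the higher for Mat1a. Ahcy, which hydrolyses the product S-adenosylhomocysteine, had 338 RPKM in knockout high-fat and 670 RPKM in flox high-fat livers (-0.99), and 567 RPKM in knockout chow and 692 RPKM in flox chow livers. Bhmt, which remethylates homocysteine with betaine, had 816 RPKM in knockout high-fat and 1345 RPKM in flox high-fat livers (-0.72), and 1710 RPKM in knockout chow and 1321 RPKM in flox chow livers (0.37). Ahcy was thus just short of the threshold, and Bhmt was highest and lowest in the knockout groups. A pseudogene of Bhmt (Bhmt-ps1) is annotated, and how reads shared with it were counted was not given in the sources used here.

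On chow the same enzymes differed little by genotype. In knockout against flox livers on chow, 0 of the 49 genes fell and 1, Csad, rose, against 1.37% and 0.252% of 10322 genes. At 1.5-fold, 1 of the 49 was lower, Dbt, against 3.84% of all genes and 7.23% of those with at least 10 RPKM in every group. The median log2 change of the 49 was -0.12, against -0.02 for all genes and -0.06 for the abundant ones. As deposited 32 of the 49 changes (65.3%) were below 0, about the share of abundant genes, 64.8%. After median rescaling 28 were (57.1%), against 57.7% of abundant genes. After rescaling without the top genes 21 were (42.9%), against 35.5%. The median of the 49 then turned to 0.0268, and that of all genes to 0.10. The histidine pathway had the lowest median on chow, -0.43 over its 4 genes, while Cth (0.40), Agxt2l1 (0.43) and Glul (0.40) stood between the 97.3 and 97.8 percentiles of all genes, below Csad at the 99.9 percentile.

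**Figure D3:**
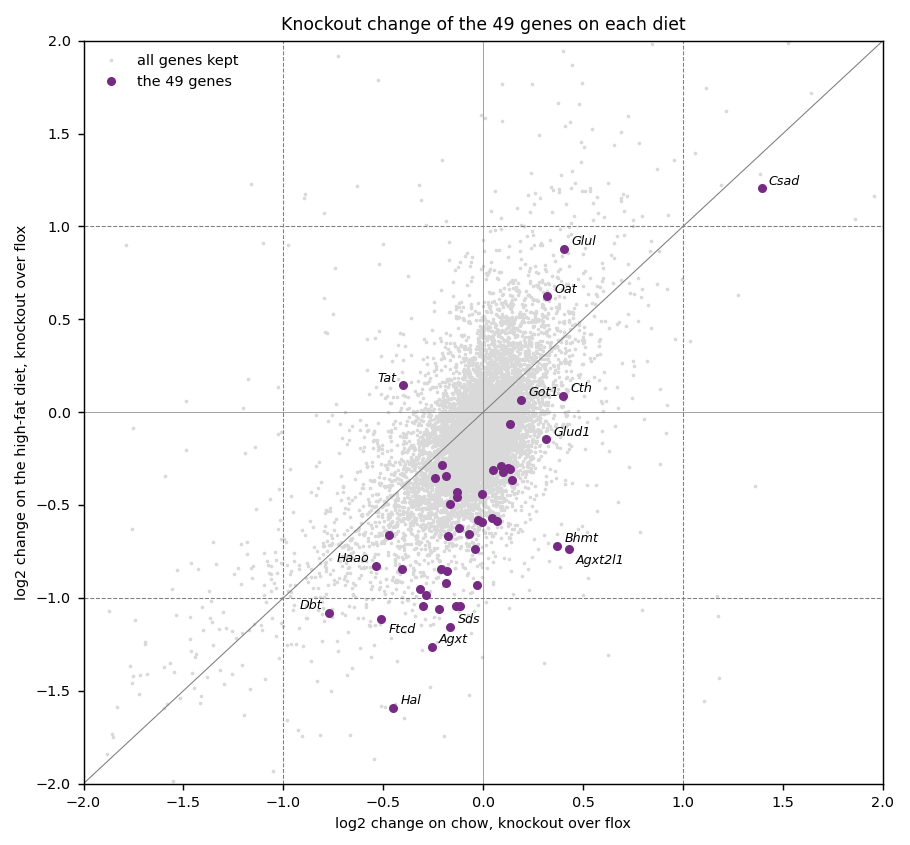
log2 change in knockout over flox livers on the high-fat diet (vertical axis) against that on chow (horizontal axis), for the 49 genes (purple, some named) and all genes kept (grey, those beyond the axes left out), with dashed lines at the threshold of 1 and a diagonal of equal change. These 2 comparisons share no group. Most of the 49 lie below the diagonal, 46 of them, and near 0 on the chow axis, with Csad beyond the threshold on both axes.

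The knockout change on the high-fat diet minus that on chow was below 0 for 46 of the 49 genes (93.9%), against 77.2% of abundant genes and 67.9% of all genes. Its median was -0.49, against -0.10 for all genes and -0.18 for the abundant ones. It was below -1 for 4 genes, Agxt2l1 (-1.17), Hal (-1.14), Bhmt (-1.09) and Agxt (-1.01), and above 1 for 0, against 0.572% and 0.659% of 10319 genes. The 3 genes with a difference above 0 were Tat (0.54), Glul (0.47) and Oat (0.30). Under each rescaling 44 of the 49 (89.8%) were below 0, against 58.2% of abundant genes after median rescaling and 54.3% after rescaling without the top genes. The genes past -1 were Hal and Agxt2l1 after median rescaling and Agxt2l1 after rescaling without the top genes. Among all genes the counts past -1 and 1 were then 38 (0.365%) and 92 (0.884%) under median rescaling. Without the top genes they were 35 (0.333%) and 105 (0.999%). With a pseudocount of 5 RPKM the members past -1 were Hal and Bhmt, and with 0.1 RPKM Sds (-1.01) joined the 4.

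Within knockout livers, 48 of the 49 genes (98.0%) had a lower level on the high-fat diet than on chow, against 84.7% of abundant genes and 66.4% of all genes. After median rescaling 47 did, against 68.4% of abundant genes, and after rescaling without the top genes 44 did, against 47.4%. In knockout high-fat against knockout chow livers, 13 of the 49 genes fell (26.5%) and 0 rose, against 0.794% and 0.668% of 10328 genes and falls in 1.57% of genes with at least 10 RPKM in every group. They were Sds (-1.62), Agxt2l1 (-1.53), Agxt (-1.44), Hal (-1.41), Csad (-1.38), Asl (-1.34), Gls2 (-1.33), Gnmt (-1.32), Ass1 (-1.18), Arg1 (-1.10), Bhmt (-1.07), Amdhd1 (-1.02) and Otc (-1.003). At 1.5-fold 28 of the 49 (57.1%) were lower, against 4.70% of all genes and 10.7% of the abundant ones. The median of the 49 was -0.64, against -0.11 for all genes and -0.27 for the abundant ones, and Glul (0.39) had the single change above 0. After median rescaling 9 of the 13 falls remained (all but Otc, Arg1, Amdhd1 and Bhmt). Of 10414 genes 61 fell (0.586%) and 92 rose (0.883%), against 82 and 69 as deposited. After rescaling without the top genes 8 remained, Ass1 being lost too. Of 10517 genes 47 fell (0.447%) and 134 rose (1.27%). Markers of other cells moved in the same comparison. The macrophage markers Cd5l (1.02) and Marco (1.21) rose, all 6 of that list being above 0 with a median of 0.78, and so did the cholangiocyte marker Spp1 (1.36) and the fibroblast marker Col1a1 (1.03). Of the 7 hepatocyte markers 1, Cyp3a11, fell (-1.43), and their median was -0.53. The part of these cell types in the diet changes of the 49 genes was not tested.

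In flox livers 38 of the 49 genes (77.6%) had a lower level on the high-fat diet, against 66.5% of abundant genes. After median rescaling 36 did (73.5%), against 64.4% of abundant genes. After rescaling without the top genes 23 did (46.9%), against 41.6%. Of the 49 genes 1, Csad, fell (-1.19) and 0 rose in flox high-fat against flox chow livers, against 0.426% and 0.213% of 10322 genes. At 1.5-fold 7 of the 49 (14.3%) were lower, against 1.68% of all genes and 2.68% of the abundant ones, and 17 of the 49 lay in the lowest 10% of all genes. The median of the 49 was -0.11, against -0.01 for all genes and -0.09 for the abundant ones. After rescaling without the top genes the median of the 49 turned to 0.0171, and that of all genes to 0.09. Under that rescaling 35 of 10511 genes fell (0.333%) and 31 rose (0.295%), against 44 and 22 as deposited. The largest changes after Csad were those of Ass1 (-0.86), Got1 (-0.79), Gnmt (-0.70), Gls2 (-0.66), Sds (-0.63) and Cth (-0.61). The same 6 genes had diet changes of -1.18, -0.91, -1.32, -1.33, -1.62 and -0.92 in knockout livers. The diet comparisons share their groups with the genotype comparisons, so the 2 kinds are not separate evidence.

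**Figure D4:**
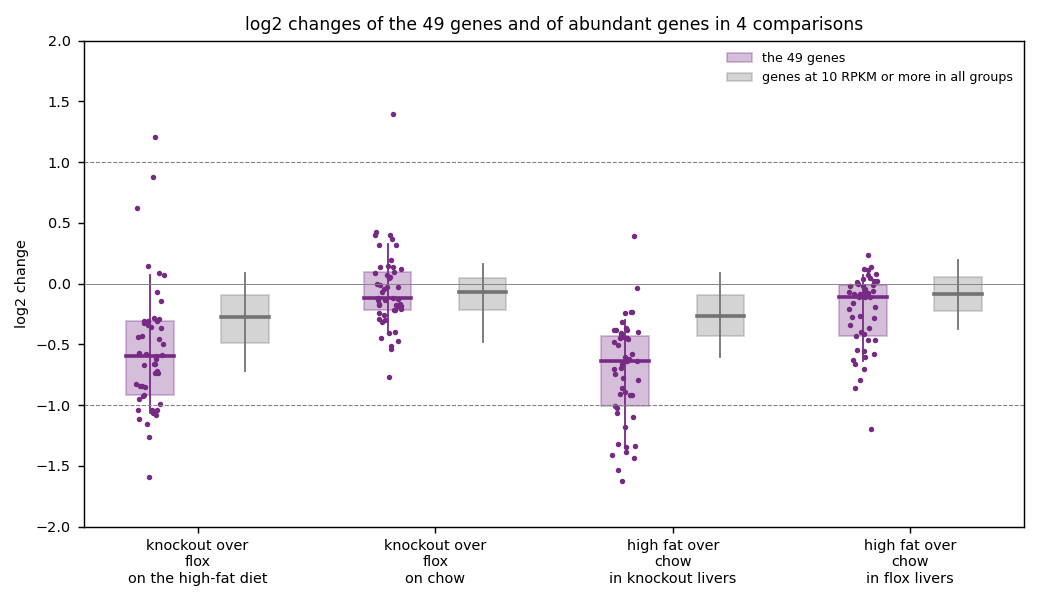
log2 changes in the 4 comparisons for the 49 genes (purple, 1 point per gene) and for the 3252 genes with at least 10 RPKM in every group (grey). Boxes span the middle quartiles, thick lines mark medians and thin lines run over the 10 to 90 percentiles of genes; dashed lines mark the threshold of 1. The 49 genes lie lower than abundant genes in the 2 comparisons that involve knockout high-fat livers, with medians of -0.59 and -0.64 against -0.27 for the abundant genes in each.

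Other enzymes of amino acid breakdown, outside the 49, were measured beside them. Of 53 listed, 52 were in the files and 49 were kept. In knockout high-fat against flox high-fat livers 3 of the 49 kept fell and 0 rose, against falls in 3.69% of abundant genes and 1.86% of all genes. As deposited 46 were below 0 with a median of -0.46, against 84.3% of abundant genes below 0 with a median of -0.27. After median rescaling 44 were below 0 with a median of -0.29, against 65.5% of abundant genes below 0. After rescaling without the top genes 36 of 50 were, with a median of -0.16, against 47.3% of abundant genes. Those that fell were Afmid (18.1 RPKM in knockout high-fat and 55.9 RPKM in flox high-fat livers, -1.57), the formamidase between Tdo2 and Kmo in the kynurenine pathway, Ccbl2 (-1.25), a kynurenine aminotransferase, and Aspg (-1.01), an asparaginase. On chow the median of the 49 kept was -0.03, and 1 of them fell, against 1.37% of all genes and 2.77% of abundant genes. It was Ccbl2, with 10.1 RPKM in knockout chow and 55.7 RPKM in flox chow livers (-2.35). For high fat over chow in knockout livers, 2 of these 49 other enzymes fell, Afmid and Ethe1, against 1.57% of abundant genes. In that comparison 46 were below 0 and the median was -0.50. The same 2 fell after median rescaling, and 0 after rescaling without the top genes. Among 10 transporters 0 passed the threshold in knockout against flox livers on either diet. Slc38a4 (-0.89) and the arginine carrier Slc7a2 (-0.81) had the lowest values on the high-fat diet, and the glutamate carrier Slc1a2 (0.69) the highest. Among 14 regulators 0 passed it as well, and 12 of the 14 were below 0 on the high-fat diet (median -0.39), a share near the 84.3% of abundant genes. After median rescaling 11 of the 14 were below 0, against 65.5% of abundant genes. After rescaling without the top genes 10 of the 14 were, against 47.3%. On chow 13 of the 14 were below 0 as deposited (median -0.14), against 64.8% of abundant genes. Under median rescaling 11 were, against 57.7%, and without the top genes 8 were, against 35.5%. Sirt3 had the lowest value on the high-fat diet, with 27.2 RPKM in knockout and 43.7 RPKM in flox livers (-0.66). Creb3l3, an ER-anchored factor of hepatocytes, had 70.5 RPKM in knockout high-fat and 112 RPKM in flox high-fat livers (-0.66). The glucagon receptor gene Gcgr had 57.7 and 88.7 RPKM in knockout and flox livers on that diet (-0.61). The largest regulator change in any comparison was that of Ppara with diet in flox livers (0.80), with 57.9 RPKM on high fat and 32.9 RPKM on chow.

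Markers of the liver zones outside the 49 genes did not move as 1 block. Of 8 pericentral markers, 2 fell in knockout livers on each diet, though under both rescalings Cyp2e1 alone fell and Rhbg rose on the high-fat diet. As deposited 1.86% of all genes and 3.69% of abundant genes fell on the high-fat diet, and 1.37% and 2.77% on chow. Cyp2e1 had 1707 RPKM in knockout high-fat and 5287 RPKM in flox high-fat livers, and 2138 RPKM in knockout chow and 4912 RPKM in flox chow livers. Cyp1a2 had 133 and 278 RPKM in knockout and flox livers on the high-fat diet, and 170 and 453 RPKM on chow. The other 6 were above 0 on each diet, with Rhbg, an ammonium transporter, at 9.72 RPKM in knockout high-fat and 4.88 RPKM in flox high-fat livers (0.87), and at 10.4 RPKM in knockout chow and 5.39 RPKM in flox chow livers (0.84). Rhbg and Slc1a2 thus had the same sign as Glul and Oat among the 49. Of 9 periportal markers 1, Pigr, fell on the high-fat diet (-1.38), and their median was -0.12, which turned to 0.05 and 0.18 under the 2 rescalings. On chow 0 of the 9 fell, 7 were below 0, and their median was -0.40, and -0.37 and -0.26 under the 2 rescalings.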

How the data were processed

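Liver RNA of 4 groups (2 genotypes by 2 diets, 8 pooled libraries) was sequenced. The deposited values are RPKM, 1 per gene and group, as the authors' file headers name them. The submitters' processing notes name TopHat2 2.0.7, Cuffdiff 2.1.1 and build mm10, with no role. The annotation, and the way 2 libraries of a group were combined and scaled, was not given in the sources used here. By name, each of the 4 files was assigned to the group that it shares with the sample titles.

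The files list 23179 rows and 22923 symbols, and rows of 158 repeated symbols were summed. Genes that reached 1 RPKM in any group were kept, and a gene at exactly 0 was left out of the comparisons with that group. The log2 changes used a pseudocount of 1 RPKM, which understates changes of low genes. Read numbers could not be recovered. Among genes under 0.1 RPKM in both groups of a pair, at most 2.73% shared a ratio within 1%, so depth is unknown and its precision cannot be given. There was no test, since a group is 1 value.

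Members past the threshold and the entry enzyme of each pathway are named with every value, and the rest with changes or ranges. From the other lists some genes are named, not always those of largest change. The members, the lists and the rules were chosen with earlier results of these data known. Places came from GENCODE M21 (GRCm38, which mm10 denotes), and promoters from RefSeq. The steps were tested on simulated data. Python 3.11.15, numpy 2.4.6, pandas 2.3.3 and matplotlib 3.10.9 were used. The 9 alternatives were pseudocounts of 0.1 and 5 RPKM, no filter, a filter of 5 RPKM, a 1.5-fold threshold, 2 rescalings, the highest of repeated rows, and zeros kept at 0. The 2 rescalings were applied to the other lists after their values had been seen.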

Additional observations from a re-analysis of the deposited data

Results flagged for a closer look

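The knockout changes of Agxt2l1 and Bhmt had opposite signs on the 2 diets and differed by more than 1 on the log2 scale. Agxt2l1 stood at -0.74 on the high-fat diet and 0.43 on chow, a difference of -1.17. Bhmt stood at -0.72 and 0.37, a difference of -1.09, and its diet changes of -1.07 in knockout and 0.03 in flox livers give the same difference. With 1 value per group these differences were not tested. That of Bhmt came to -0.96 after median rescaling and -0.93 without the 50 most abundant genes, and that of Agxt2l1 to -0.97 with a pseudocount of 5 RPKM.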

How the results depend on the processing

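No paired analysis was possible because the files give 1 value per group, and no library could be left out. Counts and medians of the 49 genes in the 4 comparisons stayed within 1.5 times or 0.1 of their reported values under both pseudocounts, both filters, the highest of repeated rows and zeros kept at 0. At 1.5-fold, 26 fell and 3 rose in knockout against flox livers on the high-fat diet, 1 fell on chow, and with the diet 28 fell in knockout and 7 in flox livers. After median rescaling, 2 fell and 2 rose in knockout against flox livers on the high-fat diet, and the medians were -0.43 in that comparison, -0.49 for the diet in knockout livers and -0.36 for the difference of the knockout changes. After rescaling without the 50 most abundant genes, 1 fell and 2 rose on the high-fat diet and 8 fell with the diet in knockout livers. The medians were then -0.30 and 0.0268 for the knockout change on the high-fat diet and on chow, -0.35 and 0.0171 for the diet change in knockout and flox livers, and -0.33 for the difference. Those of all genes were 0.12, 0.10, 0.13, 0.09 and 0.03 in the same order. Both rescalings add a constant to the log2 ratios of a comparison before the pseudocount. Of 245 single-gene values, 13 lost the threshold and 1 gained it under median rescaling, 16 lost it and 1 gained it without the top genes, and 6 lost it with a pseudocount of 5 RPKM. With a pseudocount of 0.1 RPKM 1 gained it, the difference of the knockout changes of Sds (-1.01). None of the changes past the threshold reversed under these alternatives. Past -1, that difference counted 4 genes as deposited, 5 and 2 with pseudocounts of 0.1 and 5 RPKM, 2 after median rescaling and 1 without the top genes. Depth and the spread between libraries are unknown, so the size of change that these data could resolve is unknown too.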
